A study of Mus musculus with 22 samples.

Results

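The genes described here encode 10 enzymes that hepatocytes around the portal vein hold in excess: Cps1, Otc, Ass1, Asl and Arg1 of the urea cycle, Gls2, Sds and Hal of amino acid breakdown, and Pck1 and G6pc of glucose production. A gene was taken as measured where a spot of the array carried its symbol, or an alias of it, in the platform annotation. Of the 10 genes, 7 had such a spot, with 1 spot each, among 16896 genes with a named spot. Each of these 7 spots carried a value on all 22 arrays, so none was lost to the filter on missing values. Gls2, Sds and G6pc had no spot under their names and were not analysed here.

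RNA was compared between liver tumours of mice that lack Mdr2 (current symbol Abcb4) and tumours of mice that lack Mdr2 and carry the IkB super-repressor, with 1 wild-type liver as a reference tissue. Loss of Mdr2, the transporter that brings phospholipid into bile, leads to hepatitis and later to hepatocellular carcinoma. All tumours shared the biallelic Mdr2 knockout. The Mdr2-KO group held 4 tumours (replicates 1, 2, 5 and 7) and the IkB-SR group held 6 (replicates 3, 4, 6, 8, 9 and 10). IkB-SR animals carried a super-repressor transgene behind a tetracycline-responsive promoter and a transactivator driven in hepatocytes by a C/EBP promoter, which directs the repressor to hepatocytes and not to the other cells of a tumour. Whether doxycycline was given is not stated, nor are ages. The background was mixed and the sex was entered as unknown. The series' design counts 4 and 6 separate mice. The labels do not say from how many animals the wild-type RNA came. They also enter skin as the tissue extracted and list the liver as carcinoma, and neither entry was used.

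The urea cycle turns ammonia into urea. Cps1 and Otc work in the mitochondrion, and Ass1, Asl and Arg1 complete the cycle in the cytosol. In the liver these enzymes lie mostly on the portal side of the lobule, together with the enzymes that strip amino acids of nitrogen and pass their carbon to glucose. Glucagon and glucocorticoids raise many of these genes through CREB, C/EBP and FOXO factors, whereas insulin lowers Pck1 and G6pc. In hepatocellular carcinoma, urea cycle genes are often reported to be low.

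Promoter sequence was available for Otc, Ass1, Hal, Pck1 and G6pc, from RefSeq on build GRCm38.p6. The table's 250 bases before the start of each gene were searched on both strands for 4 motifs. The letters TGACG stood for the cAMP response element. FOX factors were searched as TGTTTAC. The C/EBP motif was written TTGCAA. The TATA box was written TATAAA. None of these motifs overlapped another in the windows described here. The windows of Ass1, Hal and Pck1 are shown because they are those of measured genes in which 1 of the motifs was found, and because Ass1 and Hal carried 2 of the patterns described later. Each is written 5′ to 3′ on the strand of the gene, with the motif in capitals.
Ass1 (chr2:31470020-31470269, plus strand): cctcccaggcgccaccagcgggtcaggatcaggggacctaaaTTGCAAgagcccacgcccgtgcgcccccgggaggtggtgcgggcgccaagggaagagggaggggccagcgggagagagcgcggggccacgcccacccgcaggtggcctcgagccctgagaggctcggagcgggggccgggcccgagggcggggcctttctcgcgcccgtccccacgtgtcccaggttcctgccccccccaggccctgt
Hal (chr10:93488518-93488767, plus strand): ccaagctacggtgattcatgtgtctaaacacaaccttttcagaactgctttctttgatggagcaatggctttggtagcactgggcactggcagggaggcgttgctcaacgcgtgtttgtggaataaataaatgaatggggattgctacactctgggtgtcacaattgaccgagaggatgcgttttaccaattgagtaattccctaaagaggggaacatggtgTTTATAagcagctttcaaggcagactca
Pck1 (chr2:173152823-173153072, plus strand): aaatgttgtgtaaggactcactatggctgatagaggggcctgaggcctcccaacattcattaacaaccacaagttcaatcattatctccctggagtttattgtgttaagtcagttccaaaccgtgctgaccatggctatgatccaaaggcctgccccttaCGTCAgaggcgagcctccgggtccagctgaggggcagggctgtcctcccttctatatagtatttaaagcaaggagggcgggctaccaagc
In Ass1 the capitals mark TTGCAA, which began at position -208 from the start and is held by 5.34% of 32851 promoter windows. In Hal they mark TTTATA, which is TATAAA on the opposite strand, from position -28 (12.4% of windows hold the motif). In Pck1 they mark CGTCA, which is TGACG on the opposite strand, from position -90 (17.8% of windows). GC content was 75.6% in the Ass1 window, 45.6% in Hal and 50.8% in Pck1, against a median of 52.4% over all windows. No motif of the search was in the Otc window (chrX:10252055-10252304), which ends inside the gene as annotated below because the table takes a later start, and TGTTTAC (3.17% of windows) was in none of the measured genes' windows.

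All values are log2 ratios of a sample over a universal mouse reference RNA, with the sample's dye-swapped arrays averaged, and all differences are differences of these log2 ratios. The arrays gave values for 19576 to 25000 of 37632 spots, and samples correlated at 0.912 to 0.970 over shared features. Nfkbia, the parent gene of the transgene, read 0.04 to 0.30 in the 4 Mdr2-KO tumours and 1.69 to 3.11 in 5 IkB-SR tumours. In the sample labelled IkB-SR replicate 8 it read 0.0027, so the differences between the tumour groups are also given without it. The group difference for Nfkbia was 1.82 (two-sided exact permutation p = 0.0429), and 0.80 within the samples of large dye difference described below. The spot for Abcb4, the disrupted gene, read 2.95 on average in Mdr2-KO tumours and 2.83 in IkB-SR tumours. It had no value on both arrays of the liver, and the part of the gene that it covers was not determined. Eif2s3y, a gene of the Y chromosome, was above 0 in IkB-SR tumours 6, 8 and 9 and in the wild-type liver, and below 0 in the other 7 tumours. The spread of the difference between the dye-swapped arrays divided the samples: its SD was 0.215 to 0.305 in 6 tumours (numbers 1 and 2 of the Mdr2-KO group, with 3, 4, 9 and 10 of the IkB-SR group). In the other 4 tumours and the liver it was 0.662 to 0.758. The sources used here do not say what this division stands for. Hepatocyte markers averaged 5.29 to 5.51 in Mdr2-KO tumours, 5.56 to 6.59 in IkB-SR tumours and 5.64 in the liver. Keratinocyte markers averaged between -0.48 and -0.18 in all samples.

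None of the 7 measured genes passed the test between IkB-SR and Mdr2-KO tumours. Of 18174 features tested with limma, 0 passed an adjusted p of 0.05 (0%), and 2261 had an unadjusted p under 0.05 (12.4%). Of the 7 genes, 0 had an unadjusted p under 0.05. In IkB-SR tumours 3 of the genes had a higher mean (Ass1, Pck1 and Asl) and 4 a lower mean (Otc, Hal, Cps1 and Arg1). The median difference was -0.06 against -0.02 over all features, of which 7868 had a higher and 10306 a lower mean. For Ass1 and Otc the difference was about as large as the SD within groups, and for the other 5 it was smaller.

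Cps1 (chr1:67122426-67231267 in GRCm38.p6) encodes carbamoyl-phosphate synthetase, which takes up ammonia in the first step of the cycle. It read 6.10, 5.80, 6.06 and 4.58 in Mdr2-KO tumours 1, 2, 5 and 7. In IkB-SR tumours it ranged from 4.36 to 6.16 with a median of 5.49, and the liver read 5.76. The groups overlapped almost wholly, with 1 low Mdr2-KO tumour and 2 low IkB-SR tumours (3 and 4). Group means were 5.63 ± 0.72 (SD, n = 4) and 5.42 ± 0.74 (SD, n = 6), a difference of -0.22 (95% interval -1.17 to 0.74, limma adjusted p = 0.939).

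Otc (chrX:10252230-10321024) encodes ornithine transcarbamylase, which joins carbamoyl phosphate to ornithine. Its values were 3.38, 2.91, 2.40 and 2.45 in Mdr2-KO tumours 1, 2, 5 and 7. Those of IkB-SR tumours ran from 1.94 to 2.91 around a median of 2.45, with 2.82 in the liver. IkB-SR tumours 3, 6 and 8 lay below all Mdr2-KO tumours, and no IkB-SR tumour lay above them all. The means of 2.78 ± 0.46 (SD, n = 4) and 2.42 ± 0.34 (SD, n = 6) differed by -0.36 (95% interval -0.87 to 0.16, limma adjusted p = 0.626).

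Ass1 (chr2:31470270-31520670) encodes argininosuccinate synthetase, which brings in the second nitrogen from aspartate. It showed the largest difference between the tumour groups among the 7 genes. Mdr2-KO tumours 1, 2, 5 and 7 read 2.52, 2.81, 3.24 and 3.36. IkB-SR tumours read 2.51 at the lowest, 3.63 at the median and 4.08 at the highest, and the liver read 3.94. IkB-SR tumours 4, 6, 9 and 10 lay above every Mdr2-KO tumour, whereas the sample labelled IkB-SR replicate 8 lay below them all. The means were 2.98 ± 0.39 (SD, n = 4) and 3.50 ± 0.56 (SD, n = 6), a difference of 0.52 or 1.43-fold. It did not pass the test (95% interval -0.14 to 1.18, limma adjusted p = 0.549, two-sided exact permutation p = 0.167). Without replicate 8 the difference was 0.72 (limma adjusted p = 0.211). Leaving out that sample gave -0.37 for Cps1, -0.26 for Otc, 0.09 for Asl, 0.14 for Arg1 (in place of -0.06), -0.22 for Hal and 0.26 for Pck1.

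Asl (chr5:130011258-130024381) encodes argininosuccinate lyase, which releases arginine. It was the steadiest of the 7, at 3.39, 3.71, 3.70 and 4.15 in Mdr2-KO tumours 1, 2, 5 and 7. IkB-SR tumours lay between 3.41 and 4.16 with a median of 3.72, and the liver was at 4.23. Both tumour groups covered nearly the same range, and all 10 tumours lay below the liver. The difference was 0.06 (95% interval -0.35 to 0.46, limma adjusted p = 0.972).

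Arg1 (chr10:24915207-24927470) encodes liver arginase, which splits arginine into urea and ornithine. It read 4.46, 3.88, 3.04 and 3.23 in Mdr2-KO tumours 1, 2, 5 and 7. In IkB-SR tumours the lowest value was 2.62, the median 3.59 and the highest 4.26, and the liver read 3.76. High and low tumours occurred in both groups, and the means of 3.65 ± 0.65 (SD, n = 4) and 3.59 ± 0.62 (SD, n = 6) lay 0.06 apart. The 95% interval of the difference, -0.88 to 0.77, was wide (limma adjusted p = 0.986).

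Hal (chr10:93488768-93516761) encodes histidine ammonia-lyase, which removes ammonia from histidine. Mdr2-KO tumours 1, 2, 5 and 7 read 3.10, 2.45, 2.18 and 1.91. IkB-SR tumours ran from 1.42 to 2.95 with a median of 1.98, and the liver read 2.20. IkB-SR tumours 6, 8 and 9 lay below all Mdr2-KO tumours and the other 3 lay among them. The means of 2.41 ± 0.51 (SD, n = 4) and 2.07 ± 0.65 (SD, n = 6) differed by -0.34 (95% interval -1.12 to 0.44, limma adjusted p = 0.836).

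Pck1 (chr2:173153073-173159274) encodes cytosolic phosphoenolpyruvate carboxykinase, a rate-setting enzyme of gluconeogenesis. Mdr2-KO tumour 1 read 2.07, and tumours 2, 5 and 7 read 1.37, 1.37 and 1.40. IkB-SR tumours ran from 1.20 to 2.39 with a median of 1.62, and the liver read 1.97. In both groups low tumours clustered near the same value, with tumour 1 of the Mdr2-KO group and tumours 3, 9 and 10 of the IkB-SR group above them. The difference was 0.16 (95% interval -0.42 to 0.73, limma adjusted p = 0.923).

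**Figure D1:**
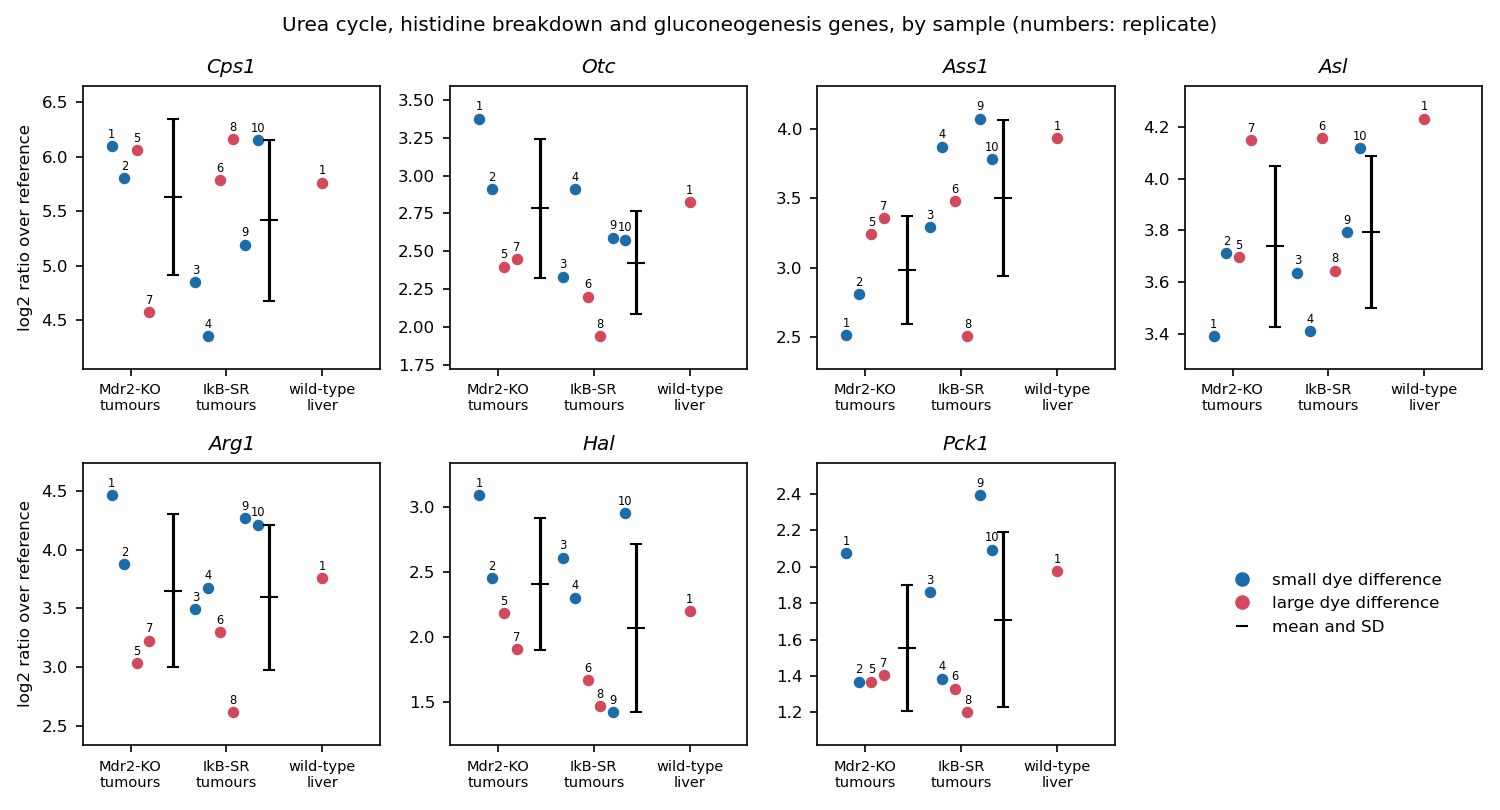
Log2 ratio over the reference RNA for each of the 7 genes (1 panel each, with its own vertical scale) in each tumour and the wild-type liver, numbered by replicate, with the mean and SD of each tumour group. Colours give the spread of the dye difference. The groups overlap for every gene, and IkB-SR tumour 8 is the lowest tumour for Otc, Ass1, Arg1 and Pck1.

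The wild-type liver was the only normal tissue, so the tests against it assume that livers vary as much as tumours do, and both tumour groups were set against the same sample. Eif2s3y read 2.33 in the liver and -4.01 to -3.67 in the Mdr2-KO tumours. In that comparison the Eif2s3y state and the difference between tumour and liver therefore cannot be told apart. The liver also had a large dye difference, which only some tumours of each group shared. Against the liver, limma called 44 of 17393 features in Mdr2-KO tumours (0.253%, of which 32 or 0.184% were higher and 12 or 0.069% lower) and 29 in IkB-SR tumours (0.167%, of which 19 or 0.109% were higher and 10 or 0.0575% lower). Of the 7 genes, 0 were called in either comparison, and 0 had an unadjusted p under 0.05, against 10.5% and 9.26% of features. In Mdr2-KO tumours 6 of the 7 means lay below the liver, with a median difference of -0.13. In IkB-SR tumours all 7 means lay below it, with a median of -0.35. Over all features the medians were 0.02 and -0.02, and 8222 and 9268 of 17393 features had a mean below the liver.

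Ass1 and Asl stood lowest against the liver. Ass1 was below the liver in all 4 Mdr2-KO tumours, by 0.95 on average (95% interval -2.10 to 0.19, limma adjusted p = 0.607), and in 5 of 6 IkB-SR tumours, by 0.43 (limma adjusted p = 0.897). Asl was below it in all 10 tumours, by 0.49 in the Mdr2-KO group (limma adjusted p = 0.696) and by 0.44 in the IkB-SR group (limma adjusted p = 0.769). All tumours of the group lay below the liver for 19.8% of features in the Mdr2-KO comparison and for 17.8% in the IkB-SR comparison, so 2 and 1 of 7 genes with that pattern are near the background. All tumours lay above the liver for 29.9% and 18.8% of features, and for 0 of the 7 genes. Pck1 was above the liver in 1 of 4 and 2 of 6 tumours, with differences of -0.42 and -0.26. Otc differed by -0.04 in the Mdr2-KO group and -0.40 in the IkB-SR group, Cps1 by -0.13 and -0.35, and Arg1 by -0.11 and -0.17. Hal differed by 0.21 and -0.13. The limma adjusted p of these values was at least 0.815.

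By the group means, the liver was highest for Ass1, Asl, Otc, Cps1, Arg1 and Pck1, whereas Mdr2-KO tumours were highest for Hal. IkB-SR tumours came second for Ass1, Asl and Pck1 and last for Cps1, Otc, Arg1 and Hal. None of the differences between neighbours in these orders passed the test. These were bulk samples, so fewer hepatocytes and less RNA per hepatocyte cannot be told apart.

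**Figure D2:**
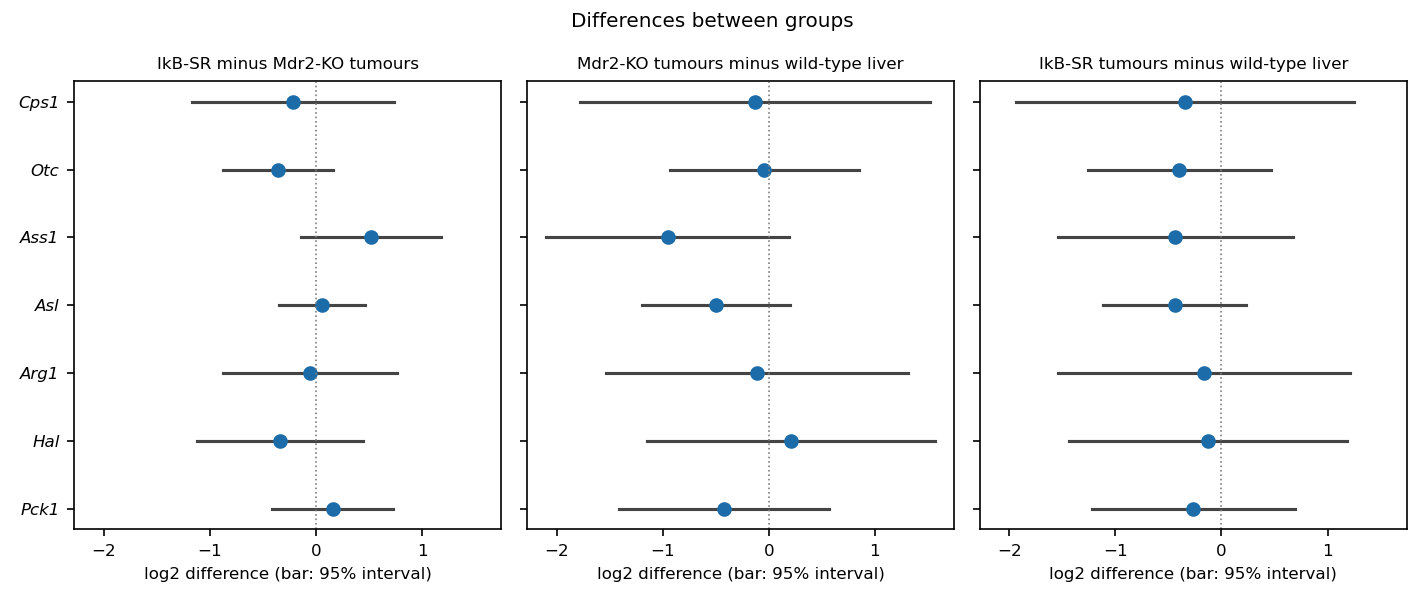
Log2 difference between groups for each of the 7 genes (points) with its 95% interval from limma (bars). Panels give IkB-SR minus Mdr2-KO tumours, Mdr2-KO tumours minus the wild-type liver and IkB-SR tumours minus the liver. Every interval includes 0, and the intervals against the single liver are the widest.

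The 7 genes varied more between tumours of 1 group than most features did. The SD within groups was 0.73 for Cps1, larger than that of 96.8% of 14653 features with values in every sample. It was 0.63 for Arg1 (95.1%), 0.60 for Hal (94.4%), 0.50 for Ass1 (90.5%), 0.43 for Pck1 (85.6%), 0.39 for Otc (80.8%) and 0.30 for Asl (66.6%), and the median feature had 0.23. From the lowest to the highest tumour, Arg1 spanned 3.60-fold and Cps1 3.49-fold, whereas Asl spanned 1.70-fold. The median absolute difference between the dye-swapped arrays of a sample was 0.27 for Pck1, the smallest of the 7, and 0.58 for Cps1, the largest. The median SD was 0.50 for the 7 genes, 0.32 for urea cycle support genes, 0.33 for the other gluconeogenesis genes and 0.43 for hepatocyte markers. It was 0.57 for the other periportal genes and 0.56 for pericentral genes, both above the median of the 7 genes.

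The genes did not vary as 1 block. Mdr2-KO tumour 1 was the highest tumour for Otc, Arg1 and Hal and the lowest for Asl, and was also low for Ass1. The sample labelled IkB-SR replicate 8 was the lowest for Otc, Ass1, Arg1 and Pck1 and the highest for Cps1. Over the 10 tumours, Arg1 and Pck1 gave Pearson's r of 0.81, Otc and Arg1 0.79, and Otc and Hal 0.66. Cps1 and Ass1, which act just before and just after Otc in the cycle, gave -0.51. The 21 pairs share arrays, reference RNA and dye division, so these values are a description. Each gene was also centred within the samples of small and of large dye difference. Arg1 and Pck1 then gave 0.62, Otc and Arg1 0.56, Otc and Hal 0.44, and Cps1 and Ass1 -0.49. On the uncentred values, the 2 tumours farthest from the median of each pair's first-named gene were left out. That gave 0.76 for Arg1 and Pck1, 0.52 for Otc and Arg1, 0.27 for Otc and Hal, and -0.44 for Cps1 and Ass1. Without replicate 8 the values were 0.78, 0.70, 0.56 and -0.42.

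**Figure D3:**
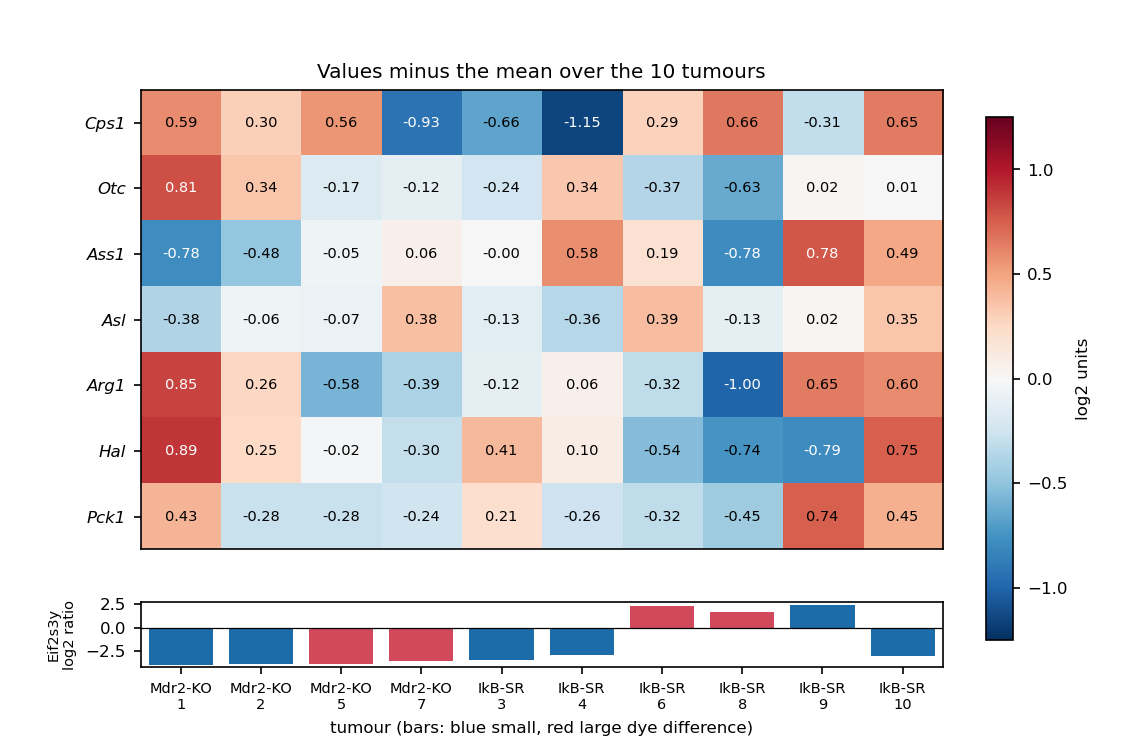
Each gene's log2 ratio minus its mean over the 10 tumours (rows are genes, columns tumours, colour and printed value the deviation in log2 units), above the log2 ratio of Eif2s3y with bars coloured by dye difference. Otc, Arg1 and Hal are highest in Mdr2-KO tumour 1, and Hal is low in the 3 tumours with Eif2s3y above 0.

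Among the tumours, Arg1 alone of the measured genes was divided by the dye difference. The 4 tumours with a large dye difference read 2.62 to 3.30 for Arg1 and the other 6 read 3.49 to 4.46, with no overlap. Without replicate 8 the first range was 3.04 to 3.30. Of 14653 features, 651 (4.44%) were divided in this way. The liver, which also had a large dye difference, read 3.76, above those 4 tumours and within the range of the others. Tumours with a large dye difference also averaged 0.67 lower for Hal, 0.54 lower for Otc and for Pck1 and 0.24 lower for Ass1, and 0.24 higher for Cps1 and 0.23 higher for Asl, with overlapping ranges. The part of the dye difference in these values was not tested.

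For Ass1 and Cps1 the group difference changed sign between the dye divisions. Among tumours with a small dye difference, IkB-SR minus Mdr2-KO was 1.09 for Ass1 (limma p = 0.00591, adjusted p = 0.209). In that division 2264 of 18174 features (12.5%) had an unadjusted p under 0.05, with 16 called. Among tumours with a large dye difference the Ass1 difference was -0.30 (limma adjusted p = 0.902). The interaction was -1.39 (limma p = 0.0144, adjusted p = 0.503), and 1392 of 18140 features (7.67%) had an unadjusted interaction p under 0.05, with 0 called. For Cps1 the values were -0.81 and 0.66, with an interaction of 1.47 (limma adjusted p = 0.740). Otc kept its sign, at -0.54 (limma p = 0.0187, adjusted p = 0.301) and -0.35, and so did Hal at -0.45 and -0.48 and Arg1 at -0.26 and -0.17. Pck1 went from 0.21 to -0.12 and Asl from 0.19 to -0.02. The small division held 2 Mdr2-KO and 4 IkB-SR tumours, and the large division held 2 tumours of each group. For Ass1, IkB-SR tumour 6 read 3.48 there and replicate 8 read 2.51, beside 3.24 and 3.36 in Mdr2-KO tumours 5 and 7, so the negative sign came with replicate 8 alone. For Cps1, tumour 6 and replicate 8 read 5.79 and 6.16, beside 6.06 and 4.58 in the Mdr2-KO tumours, where tumour 7 is the low one.

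Hal followed Eif2s3y. IkB-SR tumours 6, 8 and 9, with Eif2s3y above 0, read 1.42 to 1.66 for Hal, below all other 7 tumours at 1.91 to 3.10. The other 3 IkB-SR tumours read 2.30 to 2.95, within the range of the Mdr2-KO group. Of 14653 features, 528 (3.60%) separated these 3 tumours from the other 7. The liver had Eif2s3y above 0 and read 2.20 for Hal, within the range of the other 7 tumours. Without replicate 8, tumours 6 and 9 alone covered the same range of 1.42 to 1.66. With Eif2s3y as a covariate the group difference for Hal was 0.37 in place of -0.34 (limma adjusted p = 0.665). IkB-SR tumours 6 and 8 also had a large dye difference, and the next lowest tumours for Hal shared it. These were Mdr2-KO tumours 7 and 5, at 1.91 and 2.18, with Eif2s3y below 0. Tumours with a small dye difference read 2.30 to 3.10, apart from tumour 9 at 1.42. Since Mdr2-KO tumours all had Eif2s3y below 0, the comparison of groups and the Eif2s3y state overlap in part. The parts of sex and of the dye difference in the Hal values were not tested. For the other 6 genes the 2 sets of tumours overlapped.

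Hal opens a route in which Uroc1, Amdhd1 and Ftcd carry histidine on to glutamate. Uroc1 read 5.48 to 6.41 in Mdr2-KO tumours, 5.39 to 6.72 in IkB-SR tumours and 6.08 in the liver. Amdhd1 read 4.37 to 5.35, 4.07 to 4.82 and 4.76, and Ftcd read 0.74 to 1.05, 0.58 to 0.98 and 0.98. The ranges overlapped for all 3 genes, and the sample labelled IkB-SR replicate 8 was the lowest for each. Group differences were 0.07 for Uroc1 (limma adjusted p = 0.979; 1.91 when all its probes were averaged whatever their gaps), -0.39 for Amdhd1 (adjusted p = 0.473) and -0.10 for Ftcd (adjusted p = 0.801). Among the IkB-SR tumours, 6, 8 and 9 were the lowest for Uroc1 (on its fullest probe) and Amdhd1 as they were for Hal, whereas for Ftcd tumour 4 lay below tumour 6.

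**Figure D4:**
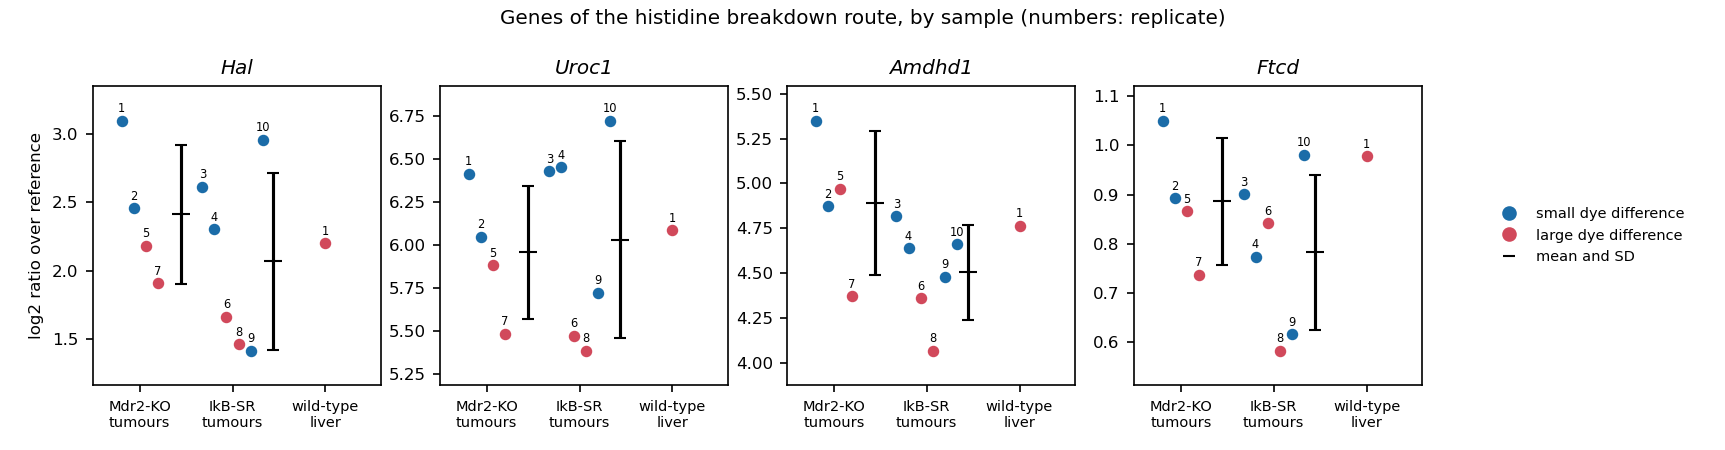
Log2 ratio over the reference for Hal, Uroc1, Amdhd1 and Ftcd in each sample, numbered by replicate and coloured by dye difference, with the mean and SD of each tumour group (vertical scales differ). In Hal, Uroc1 and Amdhd1 the IkB-SR tumours 6, 8 and 9 are the lowest of their group.

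The other genes of these pathways, their regulators and the genes of either side of the lobule gave no call between the tumour groups, where 68 were tested. Of 7 genes that support the urea cycle, 6 had a lower mean in IkB-SR tumours (median -0.21). The 3 with the smallest p were Slc7a2, a carrier of arginine and other cationic amino acids (-0.34, limma adjusted p = 0.545), Slc25a15, the mitochondrial ornithine carrier (-0.48), and Got1, the cytosolic aspartate aminotransferase (-0.38). Of 10 further gluconeogenesis genes, 7 were lower and 3 higher (median -0.05), led by the alanine aminotransferase Gpt2 (-0.54, adjusted p = 0.415), the glucose-6-phosphate carrier Slc37a4 (-0.42) and the malate dehydrogenase Mdh2 (0.26). Of 19 amino acid breakdown genes, 14 were lower and 5 higher (median -0.07). Beside Amdhd1, Bckdhb of branched-chain amino acid breakdown (-0.41) and Cbs, cystathionine beta-synthase (-0.38), had the smallest p. The mean of the 7 measured genes correlated over the 10 tumours with that of the amino acid breakdown list (r = 0.77), the gluconeogenesis list (0.74) and the other periportal list (0.53). It gave 0.36 with the pericentral list, 0.34 with hepatocyte markers, 0.19 with the urea cycle support list and 0.0024 with the regulators. Single genes differed: r with the amino acid breakdown list ran from -0.31 for Ass1 to 0.85 for Hal. With the gluconeogenesis list it ran from -0.18 for Ass1 to 0.67 for Hal. An adipocyte list of 2 genes gave 0.51, and all samples share arrays, so these values are a description.

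Of 15 regulators of these pathways, 10 had a lower and 5 a higher mean in IkB-SR tumours (median -0.32), with 0 calls, and 4 had an unadjusted p under 0.05, all lower, against 12.4% of features in either direction. Crtc2, a coactivator of CREB on genes such as Pck1, read -0.30, -0.22, 0.0059 and 0.16 in Mdr2-KO tumours 1, 2, 5 and 7. In IkB-SR tumours Crtc2 ran from -0.84 to -0.42 with a median of -0.60, and the liver read -0.15. All 6 IkB-SR tumours lay below all 4 Mdr2-KO tumours, a separation in 1 direction or the other that 3.66% of features had. The difference was -0.51 (limma adjusted p = 0.114, two-sided exact permutation p = 0.00476, the smallest that the 210 assignments allow), -0.26 and -0.83 within the small and large dye divisions, and -0.50 without replicate 8. Klf15, a glucocorticoid-responsive factor, differed by -0.54 (limma adjusted p = 0.301) and Creb1 by -0.44 (adjusted p = 0.331). Pck1, whose window above holds the cAMP response motif (as do 17.8% of windows), differed by 0.16 in the same tumours (limma adjusted p = 0.923). Whether the levels of Crtc2 or Creb1 bear on Pck1 was not tested.

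Of the marker lists, 7 of 7 macrophage genes and 5 of 5 endothelial genes had a lower mean in IkB-SR tumours (medians -0.88 and -1.38), and 10 of 10 hepatocyte genes a higher mean (median 0.76). None was called, as was true of all 18174 features. The unadjusted limma p was under 0.05 for 6 macrophage, 4 endothelial and 9 hepatocyte genes, against 12.4% of features in either direction. Macrophage markers averaged 2.24 to 3.15 in Mdr2-KO tumours and 1.67 to 2.18 in IkB-SR tumours, and 1.56 in the liver. Endothelial markers averaged 1.73 to 3.35, 0.62 to 1.68 and 1.63. The 7 periportal enzymes, which hepatocytes make, had a median difference of -0.06 in the same tumours. The part of cell makeup in these values was not tested.

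Among the genes that support the pathways, Slc7a2 and Mdh2 had the smallest p against the liver. For Slc7a2 the Mdr2-KO mean was 1.92 ± 0.32 (SD, n = 4), the IkB-SR mean was 1.58 ± 0.31 (SD, n = 6) and the liver read 3.44, above all 10 tumours. The differences were -1.52 (limma adjusted p = 0.115) and -1.85 (adjusted p = 0.0729). With the probe of most values in place of the mean of its probes, they were -2.31 (limma adjusted p = 0.0381) and -2.51 (adjusted p = 0.0221), which are calls. Mdh2 averaged 0.32 ± 0.35 (SD, n = 4) and 0.58 ± 0.21 (SD, n = 6) against -0.90 in the liver, with all 10 tumours above it. Its differences were 1.21 (limma adjusted p = 0.140) and 1.48 (adjusted p = 0.0904), and the second became 0.0473 when Mdr2-KO tumour 7 was left out. Got1 was lower than in the liver by 1.71 (limma adjusted p = 0.462) and 2.10 (adjusted p = 0.364), and Pck2, the mitochondrial counterpart of Pck1, differed by 0.86 and 0.85 (adjusted p = 0.326 and 0.378, limma). G6pc3, a widely expressed glucose-6-phosphatase, differed by 0.27 in Mdr2-KO tumours, and Slc37a4 by -0.82 in IkB-SR tumours. As lists, 6 of 7 urea cycle support genes were below the liver in both tumour groups (medians -0.50 and -0.71), as were 14 and 16 of 19 amino acid breakdown genes (medians -0.28 and -0.32). For gluconeogenesis, 4 and 5 of 10 were below it (medians 0.15 and 0.10).

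The amino acid breakdown gene with the smallest p in Mdr2-KO tumours was Gnmt, a methyltransferase of glycine (-0.45, limma adjusted p = 0.618), followed by the proline dehydrogenase Prodh (-0.97) and the aminotransferase Agxt (-0.50). In IkB-SR tumours these were Prodh (-1.42, limma adjusted p = 0.427), Fah of tyrosine breakdown (-0.69) and Gnmt (-0.53). Slc25a15 read 1.04 below the liver in IkB-SR tumours, and Nags, which makes the activator of Cps1, read 0.50 below it in Mdr2-KO tumours. Among the regulators, 9 and 11 of 14 lay below the liver (medians -0.07 and -0.30). Foxo1, which insulin signalling holds out of the nucleus, differed by -0.74 in Mdr2-KO tumours (limma adjusted p = 0.415) and -1.16 in IkB-SR tumours (adjusted p = 0.211). Cebpb differed by -0.75 and -1.31. Sik1, a kinase that restrains CREB coactivators, was 1.26 above the liver in Mdr2-KO tumours, and Klf15 differed by -0.98 in IkB-SR tumours.

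Other genes with a portal bias went both ways, with 0 calls. Between the tumour groups 5 of 9 were higher and 4 lower in IkB-SR tumours (median 0.06), with Pigr, a transporter of immunoglobulins, at -0.25 (limma adjusted p = 0.456), Hsd17b13 at 0.74 and Etnppl at -0.34. Against the liver, Aldh1b1, a mitochondrial aldehyde dehydrogenase, differed by 1.32 in Mdr2-KO tumours (limma adjusted p = 0.365) and 1.48 in IkB-SR tumours (adjusted p = 0.345). Ctsc differed by 0.88 and Cyp2f2 by -0.82 in Mdr2-KO tumours, and Pigr by -0.39 and Etnppl by -0.84 in IkB-SR tumours.

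**Figure D5:**
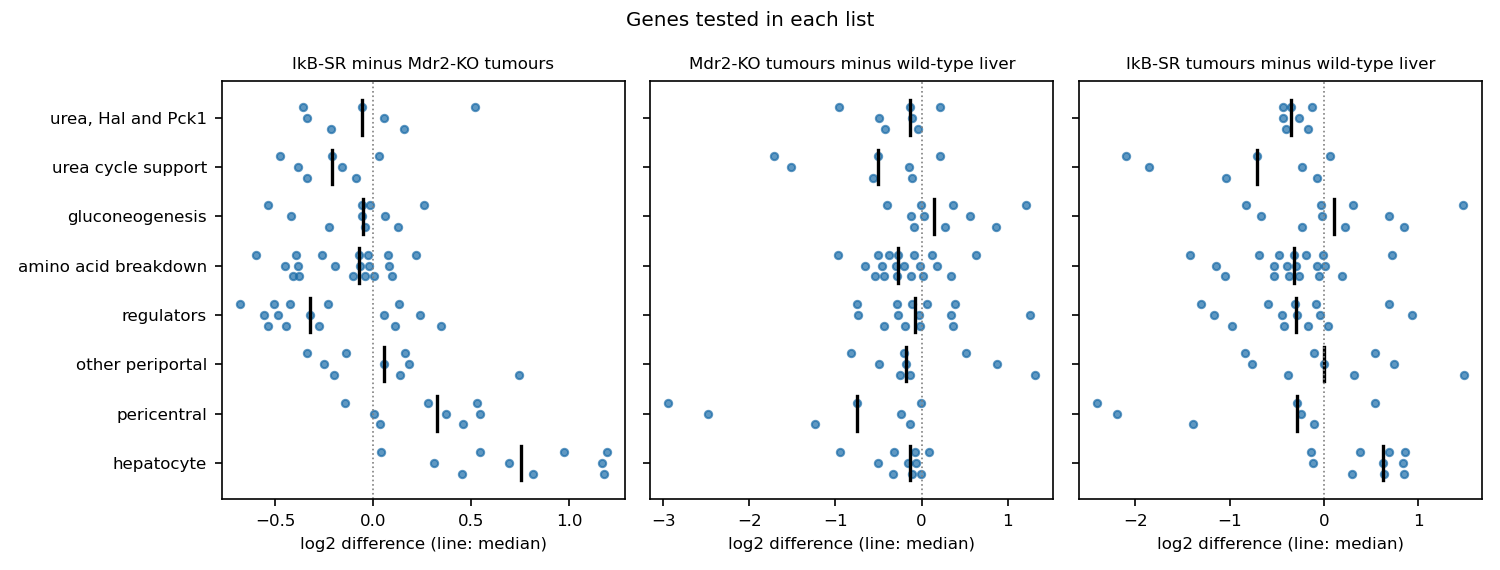
Log2 difference of each tested gene (points) by list, with the median of the list (line), for IkB-SR minus Mdr2-KO tumours and for each tumour group minus the wild-type liver. The 7 urea cycle, Hal and Pck1 differences lie between -0.36 and 0.52 between the tumour groups, while those of the hepatocyte markers all lie above 0.

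The features whose profile over the 10 tumours was most like the mean of the 7 genes, among 10185 named features with values in every tumour, were Tnr (Pearson's r = 0.94), Atp10d (0.93), Cdx2, Zfp626 and Ntrk2 (each 0.92). Within dye divisions their r was 0.84 to 0.90. The SD over the tumours was 0.07 to 0.14 for these 5, so they varied far less than the 7 genes, and they were the extreme of 10185 candidates. No p was computed.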

How the data were processed

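Expression was measured on 2-colour spotted arrays, with T7-amplified RNA of each sample hybridised against a universal mouse reference RNA on 2 arrays of opposite dye orientation, per the labels. The authors deposited 1 value per spot and array, already normalized and read here as log2 ratios of sample over reference. How the authors corrected background, normalized and filtered spots, and the log base, are unknown from the sources at hand. Base 2 was assumed. Dye-swapped arrays correlated positively (0.861 to 0.988), so they had been turned the same way.

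The arrays of a sample were averaged. Probes of 1 symbol were averaged only where they had values in the same samples as the fullest probe, a rule settled after values were seen, because gaps otherwise enter as differences. A feature was tested where both arrays had values in 3 or more Mdr2-KO tumours and 4 or more of the IkB-SR group, and in the liver where it was compared. With limma 3.58.1 in R 4.3.3, 3 group means were fitted to 11 samples, with Benjamini-Hochberg adjustment over all features and a threshold of 0.05. For tests against it, the 1 liver borrowed the spread of the tumours. Single values were compared by two-sided exact permutation over 210 assignments. The dye divisions used an SD limit of 0.5, set after the values were seen. The 10 genes, the lists and the rules were chosen with earlier results of these data known. From each pathway, regulator and zonation list, the text gives the 3 genes of lowest p per comparison, and the cell type marker lists are given as lists. The labels number the tumours without tying them to mice, so p-values measure the spread between these samples. Python 3.11.15 with numpy 2.4.6 and matplotlib 3.10.9 made the plots. The procedure was also run on simulated data of independent normal values, which held no dye division and no missing values.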

Additional observations from a re-analysis of the deposited data

Results flagged for a closer look

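Pck1 in Mdr2-KO tumour 1 read 2.07, far above the other 3 tumours of the group, which read 1.37 to 1.40. Of 20 groups of values examined in this way for the 7 genes and their checks, 1 was singled out, as chance gives in about 1 of 20. The same tumour was the highest for Otc, Arg1 and Hal.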

How the results depend on the processing

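Of the 7 genes, 0 passed the threshold in any comparison under 23 settings. Of 448 values for single genes, 34 had the opposite sign of the value reported, and the cause was not tested. Between the tumour groups these were Arg1 at 0.073 with quantile normalization and Asl at -0.10 on Cy5 arrays alone. With Eif2s3y as a covariate they were Asl at -0.057, Arg1 at 0.15 and Hal at 0.37. Within the large dye division they were Cps1 at 0.66, Ass1 at -0.30, Asl at -0.023 and Pck1 at -0.12. For Mdr2-KO tumours against the liver they were Cps1 at 0.19 (quantile), 0.56 (Cy5) and 0.47 (Eif2s3y), Arg1 at 0.20 (Cy3), and Hal at -0.17 (Cy5), -0.16 (dye division as a block) and -1.09 (Eif2s3y). For IkB-SR tumours against the liver they were Arg1 at 0.012 (quantile) and 0.15 (Cy3), Hal at 0.11 (Cy3) and Cps1 at 0.17 (Cy5). Leaving out 1 tumour at a time gave Asl -0.060 to 0.19, Arg1 -0.26 to 0.21, Cps1 -0.57 to -0.0051, Otc -0.49 to -0.16, Hal -0.52 to -0.11, Pck1 0.02 to 0.33 and Ass1 0.36 to 0.72 between the tumour groups. Against the liver it gave Cps1 -0.28 to 0.22, Otc -0.24 to 0.088, Arg1 -0.38 to 0.10 and Hal -0.018 to 0.38 for Mdr2-KO tumours, and Arg1 -0.30 to 0.029 for IkB-SR tumours.

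Over all features, calls between the tumour groups went from 0 to 20 with quantile normalization (13 higher and 7 lower), 9 with centred arrays, 4 with values on all arrays, 2 on Cy3 and 1 on Cy5 arrays, 5 when probes were averaged whatever their gaps, 3 with the dye division as a block, and 16 and 8 within the small and large divisions. Leaving out 1 tumour gave 0 to 36. The divisions taken alone and the averaging whatever the gaps were chosen after seeing the data. Calls for Mdr2-KO tumours against the liver were 28 with quantile normalization (13 higher and 15 lower), 12 on Cy3 and 24 on Cy5 arrays, 5 with Eif2s3y, and 16 to 51 without 1 tumour. For IkB-SR tumours they were 13 on Cy3 arrays and 18 to 35 without 1 tumour, and quantile normalization gave 13 higher and 13 lower. Centring moved the median of all features to -0.11 in that comparison. Nfkbia differed by 0.80 within the large division, and by 1.59 to 2.21 without 1 tumour (exact permutation p = 0.0833 without Mdr2-KO tumour 2, 5 or 7). The number of samples, the 1 spot per gene and the single liver limit what these values can show. Signal over background was not analysed here. No paired analysis was made, because the labels number the tumours in a running order and name no pairs.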

Other observations

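Genes of the opposite, pericentral side of the lobule were described beside the periportal ones. Between the tumour groups 7 of 8 had a higher mean in IkB-SR tumours (median 0.32), led by the cytochromes Cyp2e1 (0.54, limma adjusted p = 0.618) and Cyp1a2 (0.46) and the glutamate carrier Slc1a2 (0.53). Against the liver, 7 of 7 were lower in Mdr2-KO tumours (median -0.75) and 6 of 7 in IkB-SR tumours (median -0.29), with 0 calls. Slc1a2 differed by -2.94 (limma adjusted p = 0.167) and -2.41 (adjusted p = 0.310), Oat, which turns ornithine towards glutamate, by -2.48 and -2.20, and Gulo by -1.24 and -1.39.

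Uroc1, the enzyme after Hal, changed with the treatment of missing values. Its fullest probe gave a difference of 0.07 between the tumour groups, and the mean over all its probes whatever their gaps gave 1.91 (limma adjusted p = 0.235).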
